A study of Mus musculus with 16 samples.

Results

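The 10 genes described here, Atp2a2, Pln, Ryr2, Casq2, Hrc, Slc8a1, Trdn, Jph2, Asph and Cacna1c, encode the pump, the release channel complex, the junctional scaffold and the surface membrane proteins that move calcium in and out of the cardiac sarcoplasmic reticulum. They were taken by name from a table of 23946 genes. All 10 were found in the table, and all 10 were among the 12100 genes that passed the filter on low values (at least 1 FPKM, fragments per kilobase of transcript and per 1e+06 mapped fragments, in at least 4 of 16 libraries). The study compared mice with pulmonary artery banding, a surgical narrowing of the vessel leaving the right ventricle, with sham-operated mice. The labels name the operated samples PS and the protocol names banding as the only other operation, so PS was read as banded.

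There were 4 groups of 4 libraries, each from adult male FVB mice (an inbred laboratory strain) aged 10 to 13 weeks. These were right ventricular (RV) free wall from banded mice, RV free wall from sham mice, left ventricular (LV) tissue from banded mice and LV tissue from sham mice. The band loads the right ventricle, which fails in this model, and the left ventricle of the same kind of mice was measured in the same way. The libraries were made from polyA RNA of whole tissue, so fewer heart muscle cells and less of a transcript in each cell cannot be told apart. The labels do not say whether one library came from one animal, so the p-values below measure the spread between these libraries, which may in part be technical.

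As background, each heartbeat begins with calcium entry through the L-type channel, whose pore is encoded by Cacna1c. This calcium opens the ryanodine receptor (Ryr2), which releases the larger store held in the sarcoplasmic reticulum by calsequestrin (Casq2). Triadin (Trdn) and junctin (one product of Asph) tie calsequestrin to the receptor, the histidine-rich calcium binding protein (Hrc) binds calcium in the lumen, and junctophilin 2 (Jph2) holds the reticulum against the surface membrane. The muscle then relaxes as the pump SERCA2 (Atp2a2), which phospholamban (Pln) restrains, takes calcium back up and the sodium-calcium exchanger NCX1 (Slc8a1) expels the remainder. In heart failure this machinery is widely studied because slower uptake and leaky release weaken contraction.

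The sequences before the start sites of 4 genes are shown, since the comparisons below turn on these members. Slc8a1 was higher in the banded right ventricle, the banding effect on Hrc differed between the ventricles, Pln was lower in the right than the left ventricle of banded mice, and the ratio of Casq2 to Ryr2 separated the left ventricular groups. They are the 250 bases before the start from RefSeq in build GRCm38.p6, which is not the build of the deposited values. An entry was found for 7 of the 10 genes. Slc8a1 lies at chr17:81738388-81738637 on the minus strand, Hrc at chr7:45335019-45335268 on the plus strand, Pln at chr10:53337436-53337685 on the plus strand and Casq2 at chr3:102086165-102086414 on the plus strand. Capitals mark matches, on either strand, to the GATA-factor motif (GATAA or GATAG after an A or T) or to the MEF2 motif, patterns that do not overlap here.
Slc8a1: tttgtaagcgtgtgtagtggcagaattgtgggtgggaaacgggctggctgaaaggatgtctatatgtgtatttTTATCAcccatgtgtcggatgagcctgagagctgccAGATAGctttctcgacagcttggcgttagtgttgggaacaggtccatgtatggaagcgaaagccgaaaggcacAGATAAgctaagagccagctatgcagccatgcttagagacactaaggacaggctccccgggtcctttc
Hrc: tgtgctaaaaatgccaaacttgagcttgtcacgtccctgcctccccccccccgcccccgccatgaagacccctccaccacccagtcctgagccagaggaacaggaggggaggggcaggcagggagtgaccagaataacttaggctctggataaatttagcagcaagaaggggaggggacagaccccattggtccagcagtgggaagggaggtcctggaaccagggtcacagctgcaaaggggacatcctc
Pln: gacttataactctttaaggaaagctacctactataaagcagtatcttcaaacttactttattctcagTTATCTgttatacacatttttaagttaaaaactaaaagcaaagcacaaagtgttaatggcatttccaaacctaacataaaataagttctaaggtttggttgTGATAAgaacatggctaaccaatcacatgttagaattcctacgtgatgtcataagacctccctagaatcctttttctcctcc
Casq2: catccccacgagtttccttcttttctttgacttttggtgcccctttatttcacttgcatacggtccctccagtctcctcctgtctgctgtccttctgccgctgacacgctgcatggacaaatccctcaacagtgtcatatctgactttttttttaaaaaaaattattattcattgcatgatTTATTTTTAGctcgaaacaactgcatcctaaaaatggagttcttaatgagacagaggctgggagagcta
Slc8a1 held 3 GATA matches, beginning 177, 141 and 68 bases before the start, and Pln held 2, beginning 183 and 82 bases before it. Casq2 held 1 MEF2 match, beginning 69 bases before the start. The Hrc stretch held no match to these motifs, to the CArG box or to the M-CAT motif (CATTCC). Among 32851 mouse promoters of the same length, 26.5% held a GATA match, 2.92% a MEF2 match, 12.6% an M-CAT match and 1.47% a CArG match. A match describes letters only, and no binding was measured.

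Libraries differed in ways that touch every comparison below. The ribosomal RNA precursor Rn45s was listed at 0 in 5 of 16 libraries, all from banded mice (RV PS_9561 and PS_9564, LV PS_9552, PS_9553 and PS_9561). The values of these 5 ran high for most genes, with scale factors (each library's median ratio, over 8211 genes, to the geometric mean of all libraries) of 1.22 to 1.28, against 0.84 to 1.02 in the other libraries. As deposited, the median tested gene was 0.26 higher on the log2 scale in banded than in sham RV libraries and 0.33 higher in the LV. After each library was divided by its scale factor (rescaled), these medians were 0.11 and 0.01. A gene is therefore said to have risen or fallen only where it passed the test as deposited and again rescaled, with the same sign. The test was limma on log2(FPKM + 1), with p-values adjusted over all 12100 genes (Benjamini-Hochberg) and a threshold of 0.05. It is also said below where the libraries of 2 groups did not overlap. The share of all tested genes whose groups did not overlap was not computed, so such statements describe the values only. Fragments per library were estimated at 2.36e+06 to 5.50e+06 in the banded RV and 3.65e+05 to 1.28e+06 in the sham RV, and at 3.59e+06 to 9.05e+06 in the banded LV and 1.77e+06 to 4.26e+06 in the sham LV. The summed level of 8 cardiomyocyte markers ran from 20280 to 27120 FPKM in the banded RV against 28110 to 31490 in the sham RV, and from 37620 to 49590 in the banded LV against 18340 to 27710 in the sham LV. Markers of skeletal muscle summed to at most 2.37 FPKM in any library. Pancreatic islet markers summed to 64.5 to 154 FPKM in the banded RV against 637 to 2150 in the sham RV, and to 24 to 58.2 in the banded LV against 87.3 to 2091 in the sham LV. Fibroblast markers summed to 260 to 420 FPKM in the banded RV against 173 to 221 in the sham RV, and to 296 to 599 in the banded LV against 162 to 263 in the sham LV. Endothelial markers summed to 205 to 279 FPKM in the banded RV against 151 to 189 in the sham RV, and to 188 to 294 in the banded LV against 163 to 205 in the sham LV. Mural markers summed to 206 to 285 FPKM in the banded RV against 160 to 166 in the sham RV, and to 151 to 279 in the banded LV against 123 to 175 in the sham LV. Macrophage markers summed to 72.6 to 128 FPKM in the banded RV against 48.2 to 96.4 in the sham RV, and to 122 to 180 in the banded LV against 47.4 to 86.5 in the sham LV. As deposited, the sums of banded and sham libraries thus did not overlap for fibroblast markers in both ventricles, endothelial and mural markers in the RV, and macrophage markers in the LV. Taken singly, few of these markers were higher both as deposited and rescaled. In the RV these were 2 of 6 fibroblast, 1 of 5 endothelial and 2 of 6 mural markers, where 10.5% of all tested genes were. In the LV they were 0 of 6 fibroblast and 1 of 6 macrophage markers, where 2.44% of all tested genes were. Atrial markers were uneven, at 16.4 to 361 FPKM over all libraries. The part of these other cell types in the results below was not tested.

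The 10 transcripts spanned a wide range of abundance, in an order that, Trdn apart, roughly followed their roles. Over all 16 libraries Atp2a2 averaged 1247 FPKM and ranked 58th of the table, followed by its regulator Pln at 908 FPKM, ranked 78th. The luminal proteins followed, with Hrc at 195 and Casq2 at 160 FPKM, and then the junctional proteins Jph2 at 121, Ryr2 at 107 and Asph at 91.6 FPKM. The surface membrane proteins were scarcer, with Cacna1c at 42.8 and Slc8a1 at 20.1 FPKM, and Trdn was lowest at 15.4 FPKM. FPKM is a level per length of transcript, and annotated transcripts of one gene differ in length, as from 1106 to 16810 nt for Ryr2. These levels can therefore be set side by side only roughly. Neighbours in this order overlapped in their ranges over libraries in every pair but Pln and Hrc, and are not ordered beyond their spread.

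The precision of these values differs between genes. With the median annotated transcript length of each gene and the estimated depths, Atp2a2 rested on 1889 to 51230 fragments in a library, Slc8a1 on 16.2 to 735 and Trdn on 1.44 to 354. With the longest annotated transcript the lowest library held 104 fragments for Slc8a1 and 6.98 for Trdn. In the 4 sham RV libraries Trdn rested on 11.5, 1.44, 2.7 and 5.23 fragments by the median transcript and on 55.7, 6.98, 13.1 and 25.4 by the longest. Asph also encodes an enzyme and other products beside junctin, and the table gives one value for all of them. In the GENCODE vM21 annotation, exons of 4 of the 10 genes (Atp2a2, Pln, Slc8a1 and Asph) share bases with a gene on the other strand, and whether counting used strand is not given in the sources used here. Of these partners, Clvs1, beside Asph, was listed at 0 to 0.963 FPKM and Cep85l, beside Pln, at 1.10 to 4.27 FPKM.

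**Figure D1:**
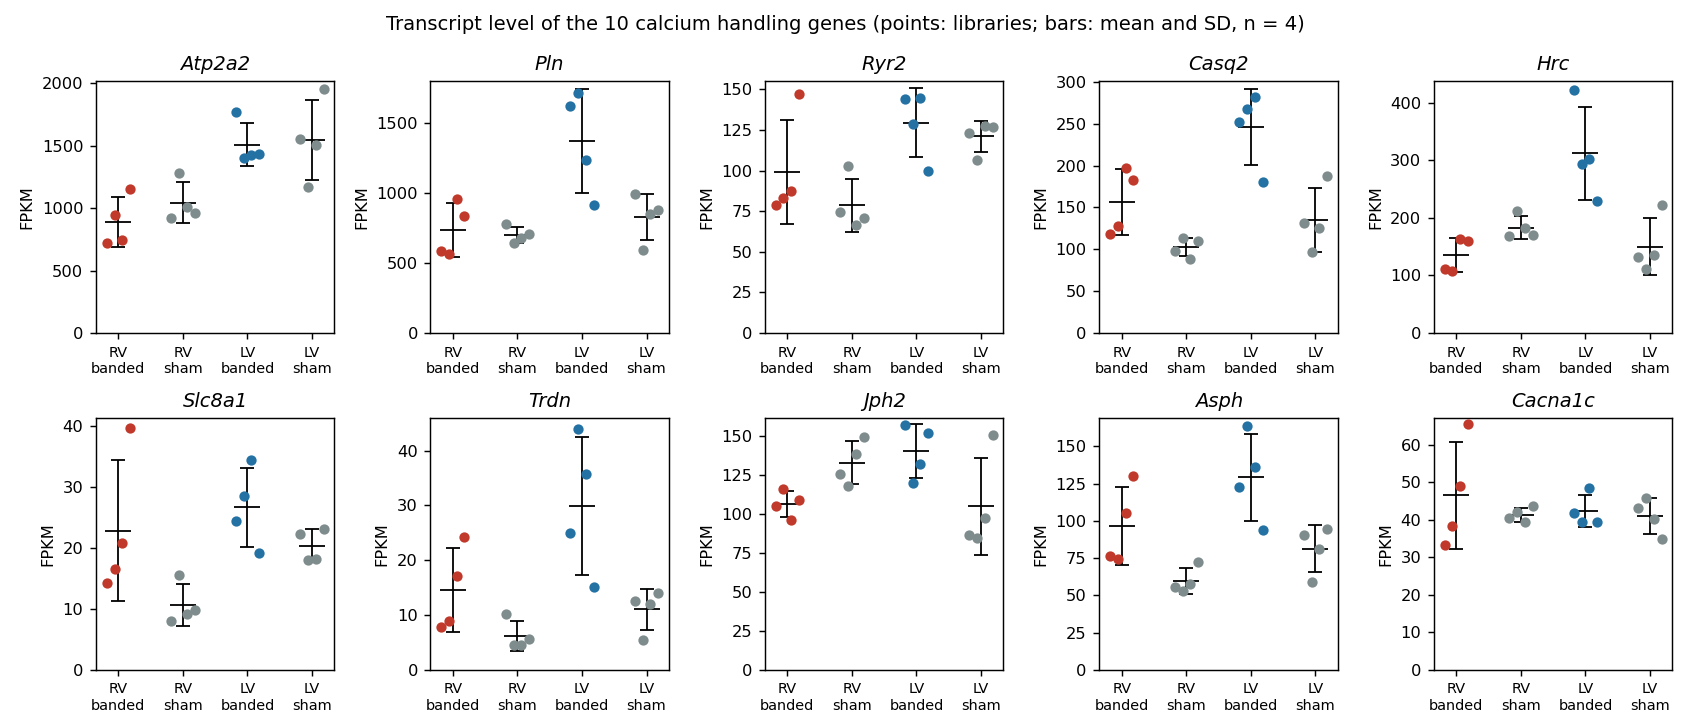
FPKM of each of the 10 genes in every library, with RV banded, RV sham, LV banded and LV sham from left to right in each panel. Points are libraries, and bars give the mean and SD of 4 libraries. Hrc in the banded LV (230 to 421 FPKM) lies above every sham LV library, while in the banded RV (108 to 163 FPKM) it lies below every sham RV library.

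Transcripts of the sodium-calcium exchanger and of Asph were higher in the banded right ventricle than in the sham right ventricle, while none of the pump, its regulator, the release channel and the L-type channel pore passed on either scale. Slc8a1 rose 1.95-fold as deposited and 1.72-fold rescaled, and Asph rose 1.58-fold and 1.38-fold. These 2 of 10 genes passed upward on both scales, where 10.5% of all tested genes did. None of the 10 passed downward on both scales, where 4.93% of all tested genes did. At an unadjusted p under 0.05 on both scales in the same direction, limma gave 4 of the 10, where 28.7% of all tested genes did so. The median difference over the 10 genes was 0.21 (log2, as deposited) and 0.02 rescaled, close to the medians of 0.26 and 0.11 over all tested genes.

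Slc8a1 had 14.2, 16.4, 20.8 and 39.7 FPKM in the banded RV libraries, against 7.95, 15.6, 9.19 and 9.75 FPKM in the sham RV libraries. The groups overlapped through a single sham library at 15.6 FPKM, and the highest banded library stood well above the other 3. The difference was 0.96 ± 0.27 on the log2 scale (SE, n = 4 each, limma adjusted p = 0.0242) and 0.78 ± 0.22 rescaled (limma adjusted p = 0.0227). The difference also passed with TPM scaling (1.41, where the median tested gene stood at 0.64) and quantile normalization (0.84, with that median at -0.01). Asph had 76.3, 74.3, 105 and 130 FPKM in the banded RV libraries, against 55.9, 52.8, 57.3 and 72.1 FPKM in the sham RV libraries. Every banded library was above every sham library. Its difference was 0.66 ± 0.21 as deposited (SE, n = 4 each, limma adjusted p = 0.0399) and 0.47 ± 0.14 rescaled (limma adjusted p = 0.0281).

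Both calls have limits that belong beside them. By the median annotated transcript, Slc8a1 rested on an estimated 28.9, 16.2, 17.7 and 29.2 fragments in the sham RV libraries. In the banded RV libraries it rested on 95.5, 258, 320 and 345. By the longest transcript the sham RV libraries held 185, 104, 113 and 187. The 2 highest banded libraries for each gene, PS_9561 and PS_9564, are those with Rn45s listed at 0, and among libraries with a value for Rn45s the log2 difference was 0.53 for Slc8a1 (limma adjusted p = 0.298) and 0.34 for Asph (limma adjusted p = 0.422), with 2 banded libraries left. After each rescaled library was corrected for trends with the length and GC content of transcripts, Slc8a1 stood at 0.49 (limma adjusted p = 0.135) and Asph at 0.09 (limma adjusted p = 0.648), and neither passed. Without banded library PS_9561, without banded library PS_9564 or without sham library 3, none of the 10 genes passed on both scales. Without sham library 1 only Trdn did, without sham library 2 or LV sham library 3 only Slc8a1, and without sham library 4 only Asph. Fitted to the 8 RV libraries alone, none passed either (limma adjusted p = 0.0909 for Slc8a1 and 0.0749 for Asph).

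The uptake genes did not pass. Atp2a2 had 717, 948, 744 and 1151 FPKM in the banded RV libraries, against 920, 1283, 1007 and 963 FPKM in the sham RV libraries. The ranges overlapped, with 2 banded libraries below every sham library. The log2 difference was -0.24 with a 95% interval of -0.65 to 0.16 (limma adjusted p = 0.377), and -0.44 rescaled (limma adjusted p = 0.127). With the length and GC correction it was -0.65 and passed (limma adjusted p = 0.0382), while with TPM scaling it was 0.25 and did not. Pln, the small membrane protein that slows the pump, had 583, 567, 953 and 836 FPKM in the banded RV libraries, against 779, 643, 674 and 703 FPKM in the sham RV libraries. The banded libraries lay on both sides of the sham range. Its log2 difference was 0.04, with an interval of -0.43 to 0.51.

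Among the genes of the release unit, the luminal and anchoring proteins showed the wider differences and the channel itself a small one. Ryr2 had 78.7, 83.1, 87.6 and 147 FPKM in the banded RV libraries, against 74.7, 103, 66.3 and 70.9 FPKM in the sham RV libraries. The groups overlapped, and 1 banded library stood apart. The log2 difference was 0.30 (interval -0.11 to 0.72, limma adjusted p = 0.285) and 0.11 rescaled, and it passed with TPM scaling only (0.79, limma adjusted p = 0.00802). Casq2 had 119, 127, 197 and 182 FPKM in the banded RV libraries, against 98.4, 113, 88.9 and 109 FPKM in the sham RV libraries. Each banded library exceeded each sham library. The log2 difference of 0.58 (interval 0.13 to 1.02) did not pass (limma adjusted p = 0.0672, or 0.0883 rescaled). Trdn had 7.82, 8.94, 17.1 and 24.3 FPKM in the banded RV libraries, against 10.1, 4.43, 4.50 and 5.6 FPKM in the sham RV libraries. Its log2 difference, 1.05, was the widest of the 10 and had the widest interval, 0.24 to 1.86 (limma adjusted p = 0.0654).

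Hrc was lower in the banded RV, on the rescaled values only. It had 110, 108, 163 and 160 FPKM in the banded RV libraries, against 169, 211, 183 and 170 FPKM in the sham RV libraries. All 4 banded libraries were below all 4 sham libraries. The log2 difference was -0.45 as deposited (interval -0.92 to 0.01, limma adjusted p = 0.156) and -0.65 rescaled (limma adjusted p = 0.0222), and it was 0.04 with TPM scaling. The cardiomyocyte marker sum was lower in every banded than in every sham RV library as well. Of its 8 markers, 2 passed downward and 1 upward on both scales. The part of this sum in the Hrc difference was not tested. Jph2 had 105, 116, 96.1 and 109 FPKM in the banded RV libraries, against 125, 118, 138 and 149 FPKM in the sham RV libraries. Here too the groups were apart, with a log2 difference of -0.31 (interval -0.67 to 0.05, limma adjusted p = 0.203) that did not pass, nor did -0.50 rescaled (limma adjusted p = 0.086). Cacna1c had 33.4, 38.2, 48.9 and 65.5 FPKM in the banded RV libraries, against 40.5, 41.9, 39.3 and 43.6 FPKM in the sham RV libraries. The banded libraries spread around a narrow sham range, and the log2 difference was 0.12 (interval -0.25 to 0.49), or 0.61 with TPM scaling, where it passed (limma adjusted p = 0.00906).

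**Figure D2:**
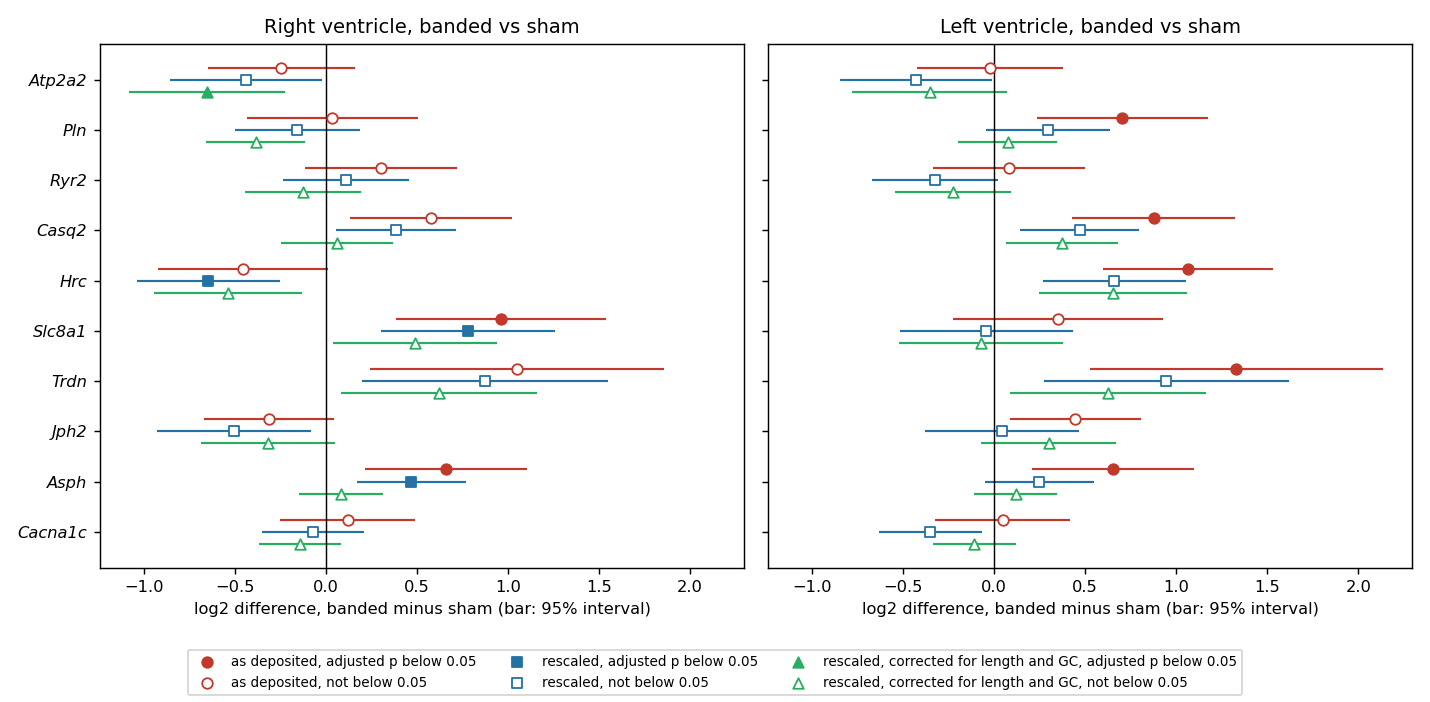
Log2 difference between banded and sham libraries for each of the 10 genes in the right ventricle (left panel) and left ventricle (right panel), as deposited, rescaled, and rescaled with a correction for transcript length and GC content. Bars are 95% intervals and filled symbols passed at an adjusted p below 0.05. In the RV Slc8a1 and Asph are filled both as deposited and rescaled, and in the LV 5 genes are filled as deposited and none rescaled.

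In the left ventricle of banded mice, the luminal and anchoring genes and Pln were higher than in sham mice on the deposited scale, and none of the 10 genes passed on both scales. Pln, Casq2, Hrc, Trdn and Asph passed as deposited, 5 of 10 where 14.3% of all tested genes passed upward, and no gene passed downward, as against 0.322% of all tested genes. Rescaled, limma called 0 of 10, and over both scales 2.74% of all tested genes passed (2.44% upward and 0.298% downward). At an unadjusted p under 0.05 the rescaled fit gave 3 genes higher (Casq2, Hrc and Trdn) and 2 lower (Atp2a2 and Cacna1c), where 10.6% of all tested genes were higher and 9.24% lower. The 3 LV banded libraries with Rn45s at 0 leave 1 with a value, LV PS_9564, which had the lowest banded level of Pln, Ryr2, Casq2, Hrc, Slc8a1, Trdn and Asph.

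Hrc had 421, 293, 303 and 230 FPKM in the banded LV libraries, against 132, 110, 136 and 223 FPKM in the sham LV libraries. Every banded library exceeded every sham library as deposited, the closest pair being 230 and 223 FPKM. The log2 difference was 1.07 ± 0.22 (SE, n = 4 each, limma adjusted p = 0.00524) and 0.66 rescaled (limma adjusted p = 0.056). Among libraries with an Rn45s value, which leave PS_9564 as the only banded LV library, it was 0.66. Nor did Hrc pass with TPM scaling, quantile normalization or the length and GC correction. Casq2 had 252, 267, 282 and 180 FPKM in the banded LV libraries, against 131, 96.5, 125 and 188 FPKM in the sham LV libraries. Only sham library 4 reached into the banded range. Its log2 difference was 0.88 (limma adjusted p = 0.012) and 0.47 rescaled (limma adjusted p = 0.0933). Without sham library 4, Casq2 and Hrc passed on both scales, and without RV sham library 2 Hrc did.

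Trdn had 25, 44.0, 35.7 and 15 FPKM in the banded LV libraries, against 12.6, 5.52, 12 and 14 FPKM in the sham LV libraries. The groups were apart by the distance of 15 and 14 FPKM, and the log2 difference was 1.33 as deposited (limma adjusted p = 0.0277) and 0.95 rescaled (limma adjusted p = 0.1). Pln had 1620, 1710, 1236 and 910 FPKM in the banded LV libraries, against 988, 595, 852 and 879 FPKM in the sham LV libraries. The groups overlapped at library PS_9564, and the log2 difference was 0.70 as deposited (limma adjusted p = 0.043) and 0.30 rescaled (limma adjusted p = 0.33). Asph had 123, 164, 136 and 94.1 FPKM in the banded LV libraries, against 90.3, 59.2, 81.2 and 94.8 FPKM in the sham LV libraries. It likewise overlapped at library PS_9564, with a log2 difference of 0.65 as deposited (limma adjusted p = 0.0457) and 0.25 rescaled.

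The other 5 genes did not pass in the LV on either scale. Atp2a2 averaged 1507 ± 173 FPKM in the banded LV and 1547 ± 320 FPKM in the sham LV (SD, n = 4 each), a log2 difference of -0.02 as deposited and -0.43 rescaled (limma adjusted p = 0.235). Ryr2 averaged 129 ± 21.3 FPKM in the banded LV and 121 ± 9.71 FPKM in the sham LV, with log2 differences of 0.08 as deposited and -0.32 rescaled, so its direction turned with the scale. Slc8a1 averaged 26.6 ± 6.44 FPKM in the banded LV and 20.3 ± 2.68 FPKM in the sham LV, with differences of 0.35 and -0.04, which also turned. Jph2 averaged 140 ± 17.3 FPKM in the banded LV and 105 ± 31.0 FPKM in the sham LV, with differences of 0.45 (limma adjusted p = 0.0861) and 0.04. Cacna1c averaged 42.3 ± 4.25 FPKM in the banded LV and 40.9 ± 4.70 FPKM in the sham LV, with differences of 0.05 and -0.35, of opposite sign.

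The banding effect on Hrc differed between the 2 ventricles, and among the 10 genes this was the one difference between effects that passed on both scales. The banding effect in the RV minus that in the LV was -1.52 ± 0.31 on the log2 scale (SE, limma adjusted p = 0.00696) and -1.31 rescaled (limma adjusted p = 0.0104). This is 1 of 10 genes, where 3.45% of all tested genes passed in this direction on both scales and 0.529% in the other, 3.98% in all, and 5.53% passed in this direction as deposited. With each of the 16 libraries left out in turn, Hrc passed on both scales every time, with values from -1.73 to -1.36 as deposited. After the length and GC correction it was -1.19 (limma adjusted p = 0.0192). With same-numbered RV and LV libraries fitted as a block, it passed as deposited but not on both scales. It kept its sign but did not pass with quantile normalization (-0.87, limma adjusted p = 0.0752), with TPM scaling (-0.83, limma adjusted p = 0.166) or among libraries with an Rn45s value (-1.39, limma adjusted p = 0.186).

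The cardiomyocyte marker sum showed the same pattern as Hrc, lower in banded than sham RV libraries and higher in banded than sham LV libraries. The single markers did not all follow the sum in the RV. There 2 passed downward and 1 upward on both scales, with a median of -0.14 as deposited and -0.34 rescaled. Of the 8 markers, 3 passed downward on both scales in the difference of effects, with a median of -0.96 as deposited and -0.74 rescaled. Their part in the Hrc result was not tested. For Slc8a1 the difference of effects was 0.61 (interval -0.20 to 1.43, limma adjusted p = 0.453), so its call in the RV and the lack of one in the LV are not shown to differ. With TPM scaling, which put the median tested gene at 0.47, it was 1.25 and passed (limma adjusted p = 0.0464). For Jph2 it was -0.76 (limma adjusted p = 0.0733) and -0.54 rescaled, and for Pln -0.67 (limma adjusted p = 0.273).

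Right and left ventricles were also set against each other within each operation. In sham mice none of the 10 genes passed on both scales, where 3.88% of all tested genes did (2.55% higher and 1.33% lower in the RV). As deposited none passed either, where 2.95% of all tested genes were higher and 1.33% lower. At an unadjusted p under 0.05 on both scales limma gave 3 of the 10, where 19.8% of all tested genes did so. Rescaled alone, Ryr2 (-0.69, limma adjusted p = 0.0197), Slc8a1 (-0.97, limma adjusted p = 0.0186) and Asph (-0.49, limma adjusted p = 0.0427) were lower in the sham RV. On that scale 617 of the 12100 tested genes were lower in the sham RV and 426 higher. Slc8a1 averaged 10.6 ± 3.39 FPKM in the sham RV and 20.3 ± 2.68 FPKM in the sham LV (SD, n = 4 each), and Ryr2 78.7 ± 16.4 FPKM and 121 ± 9.71 FPKM in the same order. No sham RV library reached the sham LV range for either gene. Without RV sham library 2, the shallowest of all, or without RV banded library PS_9564, both Ryr2 and Slc8a1 passed on both scales, and among libraries with an Rn45s value Slc8a1 did. The 4 sham RV libraries enter both this contrast and the RV banding contrast, so for Slc8a1 the 2 results share those values.

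In banded mice, Hrc and Pln were lower in the RV than in the LV on both scales. These are 2 of 10 genes, where 1.39% of all tested genes passed downward and 0.182% upward. As deposited 3 of the 10 were lower, where 2.89% of all tested genes were lower and 0.190% higher. Hrc averaged 135 ± 30.2 FPKM in the banded RV and 312 ± 80.0 FPKM in the banded LV (SD, n = 4 each), a log2 difference of -1.19 (limma adjusted p = 0.00816) and -1.03 rescaled (limma adjusted p = 0.0157). The libraries of the 2 ventricles did not overlap. Pln averaged 734 ± 191 FPKM in the banded RV and 1369 ± 369 FPKM in the banded LV, a log2 difference of -0.89 (limma adjusted p = 0.0395) and -0.73 rescaled (limma adjusted p = 0.0318). Its libraries overlapped as deposited and not once rescaled. Atp2a2 averaged 890 ± 202 FPKM in the banded RV and 1507 ± 173 FPKM in the banded LV, and its difference of -0.78 passed as deposited (limma adjusted p = 0.0349) and not rescaled (-0.62, limma adjusted p = 0.107). Of the 8 cardiomyocyte markers, 3 were lower in the banded RV on both scales and 0 higher, with a median of -0.75 as deposited and -0.60 rescaled. Their part in these differences was not tested. Without LV banded library PS_9552 none of the 10 genes passed on both scales, nor did any among libraries with an Rn45s value, which leave 1 LV banded library. Hrc alone passed without any one of RV banded PS_9552, PS_9553 or PS_9564, RV sham 3, LV banded PS_9553, PS_9561 or PS_9564, or LV sham 3. With same-numbered RV and LV libraries fitted as a block, neither Hrc nor Pln passed on both scales.

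Ratios of 2 transcripts within a library do not depend on the scale factor of that library, so 3 were computed between functional partners. They are given as a description with no test. The ratio of exchanger to pump, Slc8a1 to Atp2a2, was 0.0198, 0.0173, 0.0280 and 0.0345 in the banded RV libraries, against 0.00864, 0.0121, 0.00913 and 0.0101 in the sham RV libraries. Every banded library lay above every sham library, the means being 0.0249 ± 0.00783 and 0.0100 ± 0.00155 in that order (SD, n = 4 each). In the LV the same ratio averaged 0.0179 ± 0.00523 in banded and 0.0133 ± 0.00173 in sham libraries, which overlapped. On the log2 scale the RV ratio was 1.27 higher in banded libraries, 1.14 with the length and GC correction, 0.81 with quantile normalization and 0.90 among libraries with an Rn45s value.

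The ratio of calsequestrin to its channel, Casq2 to Ryr2, separated the LV groups. It was 1.75, 2.07, 1.95 and 1.81 in the banded LV libraries, against 1.07, 0.903, 0.979 and 1.48 in the sham LV libraries. There was no overlap, whereas in the RV the ratio averaged 1.63 ± 0.433 in banded and 1.32 ± 0.181 in sham libraries and overlapped. On the log2 scale the LV difference in Casq2 to Ryr2, banded minus sham, was 0.798. It was 0.747 with quantile normalization, 0.598 with the length and GC correction and 0.735 among libraries with an Rn45s value. The ratio of pump to regulator, Atp2a2 to Pln, averaged 1.16 ± 0.313 in the banded LV and 1.88 ± 0.278 in the sham LV. The highest banded and the lowest sham LV library both stood at about the same value, 1.58 and 1.57. In the RV it averaged 1.27 ± 0.372 in banded and 1.51 ± 0.348 in sham libraries, which overlapped. On the log2 scale the LV difference in Atp2a2 to Pln, banded minus sham, was -0.727. It was -0.729 with quantile normalization and -0.429 with the length and GC correction. Among libraries with an Rn45s value, which leave PS_9564 as the only banded LV library, it was -0.245.

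**Figure D3:**
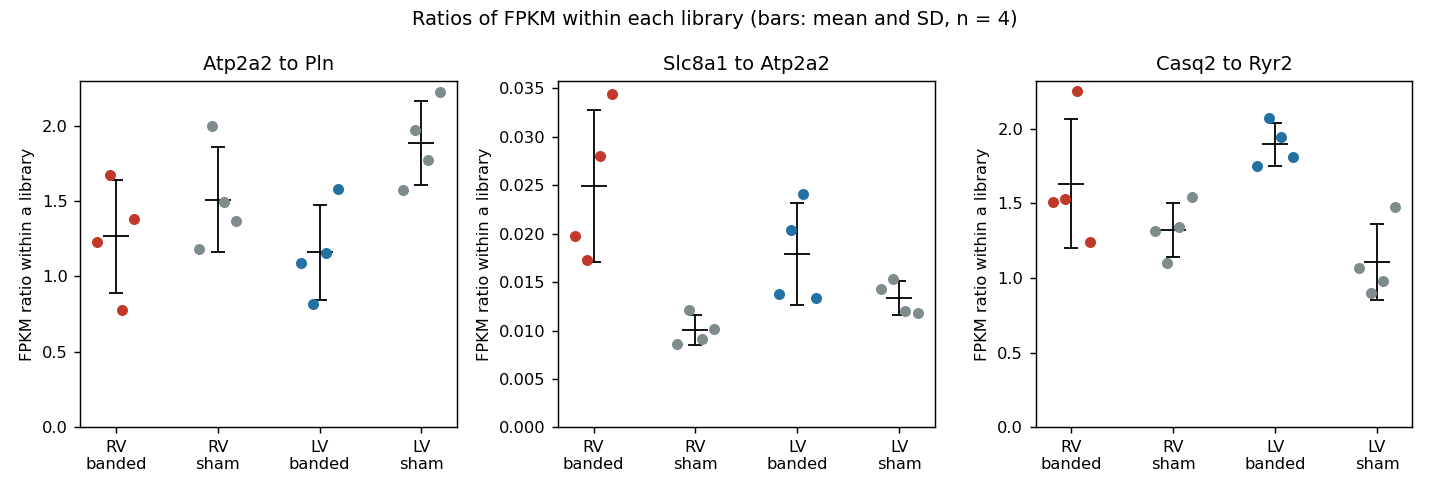
Ratio of the FPKM of 2 genes within each library, with points for libraries and bars for the mean and SD of 4 libraries. Slc8a1 to Atp2a2 is at least 0.0173 in every banded RV library and at most 0.0121 in every sham RV library, and Casq2 to Ryr2 is at least 1.75 in every banded LV library and at most 1.48 in every sham LV library.

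Across all tested genes the banding difference moved with transcript length, and in opposite directions in the 2 ventricles. In the RV the median rescaled log2 difference was -0.01 in the 10% of genes with the shortest transcripts (median 594.5 nt) and 0.24 in the 10% with the longest (median 6083 nt). In the LV these medians were 0.12 and -0.15. The 10 genes span these lengths, with median transcripts of 1088 nt for Trdn, 1243 nt for Pln, 1509 nt for Hrc, 3046 nt for Slc8a1, 4235 nt for Atp2a2 and 7124 nt for Cacna1c. With tested genes cut into 10 bins of equal size by length and each member set against its own bin, Slc8a1 exceeded 90.9% and Trdn 93% in the RV, while Asph exceeded 74.7%. At the other end, Jph2 exceeded 7.67% of its bin, Atp2a2 9.75% and Hrc 11.2%. In the LV, Trdn exceeded 97.3%, Hrc 93.2% and Casq2 89.8% of their bins, and Slc8a1 stood near the middle at 47.7%.

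**Figure D4:**
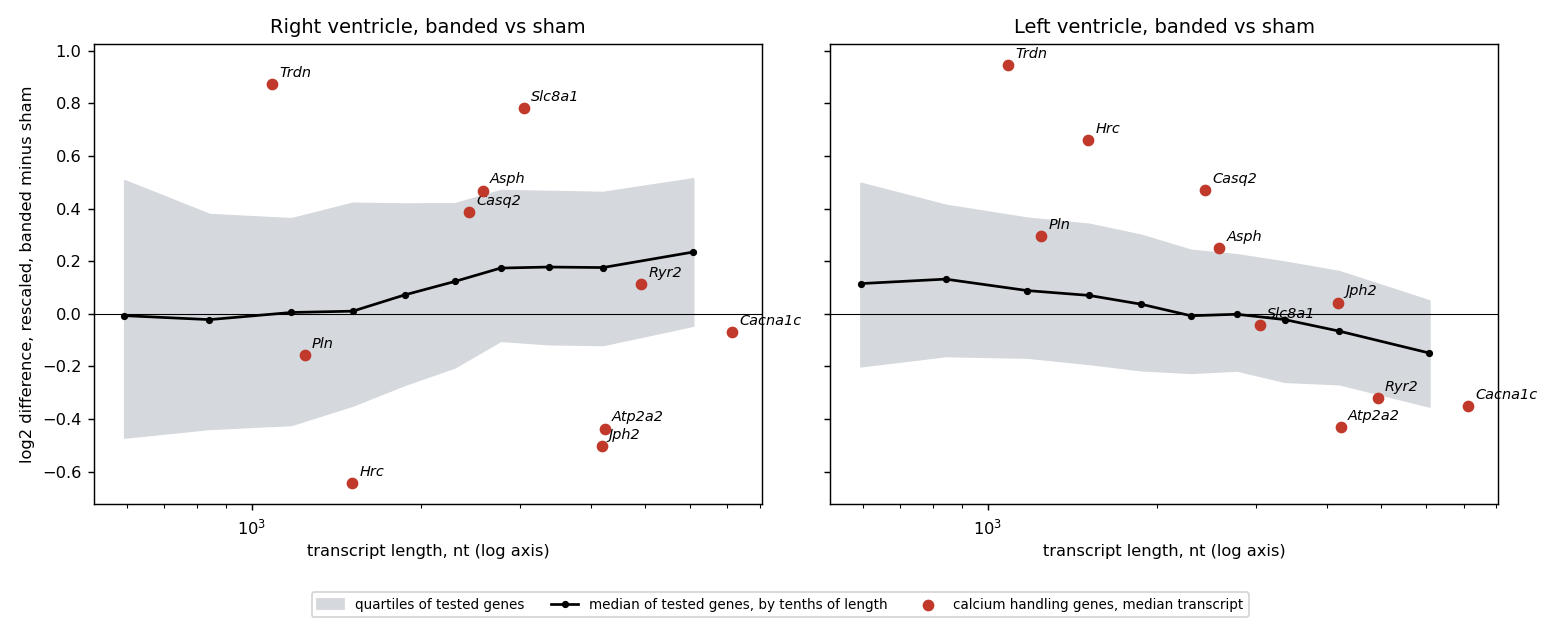
Rescaled log2 difference between banded and sham libraries against transcript length (log axis) in the right and left ventricle. The line and band give the median and quartiles of all tested genes in 10 bins of length, and red points are the 10 genes at the median length of their transcripts. The line climbs to 0.24 at the long end in the RV and falls to -0.15 in the LV, while Trdn stands at 0.87 and 0.95 and Hrc at -0.65 and 0.66 in the RV and LV panels.

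The authors' deposited table of group values gives one number per group, without replicates, and its directions matched in part. In the authors' deposited table the log2 ratio of banded to sham RV was 0.83 for Slc8a1, -0.83 for Hrc, 0.37 for Asph and -0.15 for Atp2a2, with a median of 0.20 over the tested genes. For the LV the authors' deposited table gave 0.62 for Hrc, 0.16 for Casq2, 0.39 for Trdn and 0.15 for Asph, with a median near 0. Slc8a1 at -0.47, Pln at -0.14, Ryr2 at -0.45 and Cacna1c at -0.26 in the authors' deposited table were lower in the banded LV, whereas the mean of the replicate values was higher for all 4 genes as deposited. Rescaled, the replicate mean was lower in the banded than the sham LV for Slc8a1 (22.1 and 22.7), Ryr2 (108 and 135) and Cacna1c (35.7 and 45.9). For Pln it stayed higher (1136 and 921). In the RV, Pln stood at -0.10 in the authors' deposited table. There the mean of its replicates was higher in banded libraries as deposited and lower rescaled (676 in banded and 752 in sham libraries).

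The wider calcium machinery was read from 5 lists of 85 genes, of which 84 were in the table, and 16 of these 84 did not pass the filter on low values. Among partners of the SERCA pump and other calcium pumps, 3 of 16 tested genes rose in the banded RV and none fell, where 10.5% of all tested genes rose and 4.93% fell. They included 2 regulatory subunits of protein kinase A, which phosphorylates phospholamban. Prkar1a averaged 261 ± 64.6 FPKM in the banded RV and 90.9 ± 15.5 FPKM in the sham RV (SD, n = 4 each, log2 difference 1.49, limma adjusted p = 0.000216), and Prkar2a 23.2 ± 7.51 FPKM and 10.8 ± 4.39 FPKM (1.06, limma adjusted p = 0.00756). The third was the plasma membrane calcium pump Atp2b1, at 10.8 ± 5.52 FPKM in the banded RV and 4.85 ± 0.857 FPKM in the sham RV (0.93, limma adjusted p = 0.0275). None of this list passed on both scales in the LV. Sln, encoding sarcolipin, an inhibitor of the pump found mainly in atria, ranged from 0 to 94.5 FPKM over all libraries and did not pass in either ventricle. S100a1, a calcium sensor that acts on the pump and the channel, averaged 1808 ± 420 FPKM in the banded RV and 1391 ± 122 FPKM in the sham RV, and 2425 ± 324 FPKM in the banded LV and 1278 ± 253 FPKM in the sham LV. It passed in the LV as deposited only (0.93, limma adjusted p = 0.0049).

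Among partners of the release unit, 2 of 17 tested genes rose in the banded RV, near the 10.5% of all tested genes. In the banded LV 1 of 17 rose, where 2.44% of all tested genes did, and none fell in either ventricle. Akap6, which anchors protein kinase A near the ryanodine receptor, averaged 21.7 ± 8.30 FPKM in the banded RV and 9.72 ± 0.689 FPKM in the sham RV (log2 difference 1.02, limma adjusted p = 0.00507). Tmem38b, a cation channel of the reticulum, averaged 18.9 ± 3.28 FPKM in the banded RV and 12.4 ± 1.80 FPKM in the sham RV (0.57, limma adjusted p = 0.0374). In the LV it was Calr, encoding the calcium-binding chaperone calreticulin, at 132 ± 34.7 FPKM in banded and 50.8 ± 14.1 FPKM in sham libraries (1.35, limma adjusted p = 0.00241). Casq1, the calsequestrin of skeletal muscle, averaged 27 ± 4.89 FPKM in the banded RV and 78.6 ± 29.1 FPKM in the banded LV and was lower in the RV on both scales (-1.46, limma adjusted p = 0.0154). Camk2d, a kinase that phosphorylates the receptor, had a log2 difference of 0.75 in the RV that did not pass (limma adjusted p = 0.052). Srl, encoding sarcalumenin, did not pass in the RV (0.33) and passed in the LV as deposited only (0.64, limma adjusted p = 0.0317). Fkbp1b, the receptor's small stabilising subunit, reached at most 1.94 FPKM and was not tested.

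Among calcium channel subunits and T-tubule proteins, 1 of 14 tested genes rose in the banded RV and 2 fell, where 10.5% of all tested genes rose and 4.93% fell, and none passed on both scales in the LV. Cacna1g, the pore of a T-type channel, averaged 2.2 ± 0.121 FPKM in the banded RV and 7.46 ± 0.981 FPKM in the sham RV (log2 difference -1.39, limma adjusted p = 0.000773). Cav3, the muscle caveolin, averaged 48.0 ± 7.05 FPKM in the banded RV and 102 ± 17.5 FPKM in the sham RV (-1.06, limma adjusted p = 0.00107). Ahnak, a large protein that binds the channel's beta subunit, rose (0.64, limma adjusted p = 0.0394), and Cacnb2, that subunit's gene, had a difference of -0.34 that did not pass (limma adjusted p = 0.285). Among IP3 receptors and store-operated entry genes, 1 of 10 rose and 1 fell in the RV, the rise being near the share of 10.5% over all tested genes. These were the store sensor Stim2 (0.78, limma adjusted p = 0.0323) and the receptor Itpr2, at 7.99 ± 3.02 FPKM in the banded RV and 15.1 ± 4.15 FPKM in the sham RV (-0.87, limma adjusted p = 0.0269). Of 11 mitochondrial uptake genes, 1 rose in the RV and 2 in the LV, where 10.5% and 2.44% of all tested genes rose. Micu2, a gatekeeper of the uniporter, rose in both the RV (1.10, limma adjusted p = 0.0031) and the LV (1.04, limma adjusted p = 0.005), and the outer membrane channel Vdac2 rose in the LV (0.99, limma adjusted p = 0.00457).

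**Figure D5:**
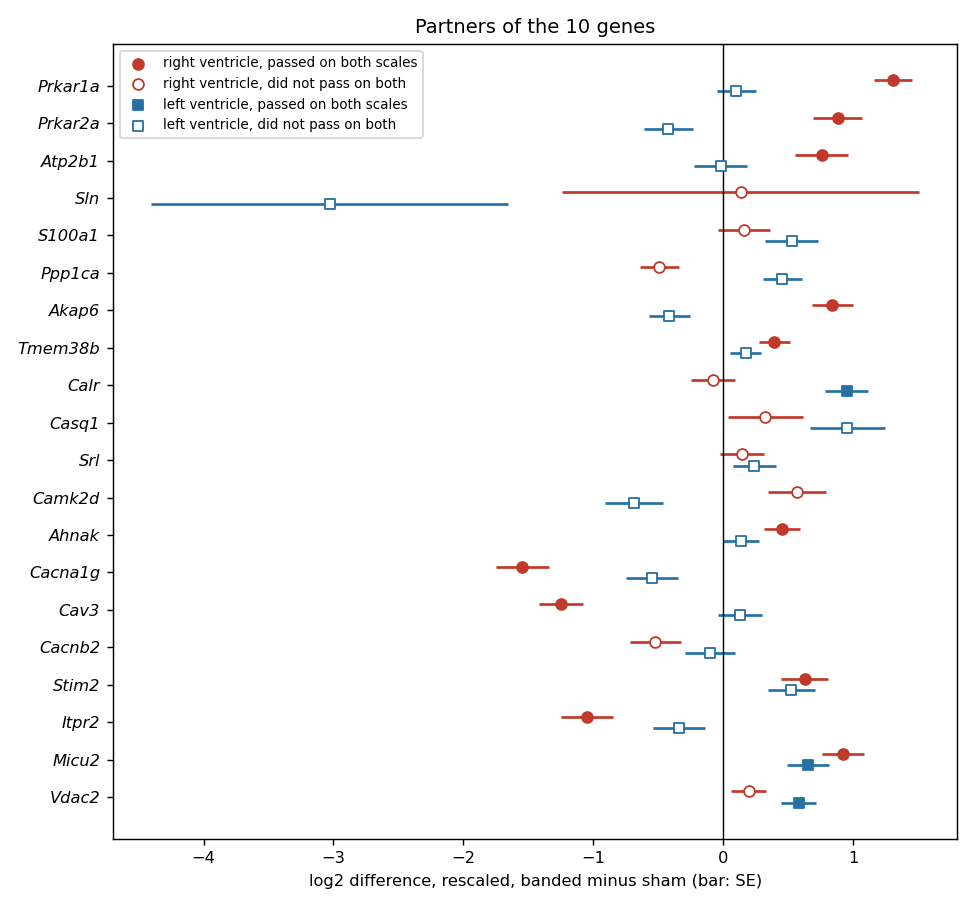
Rescaled log2 difference between banded and sham libraries for 20 partner genes, in the right ventricle (circles) and left ventricle (squares), with bars for the SE. Filled symbols passed both as deposited and rescaled. Prkar1a (1.30) and Cacna1g (-1.55) mark the ends among filled RV symbols, and Sln has the widest bars.

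The genes whose levels ran most like those of 2 members over the 16 libraries were picked by Pearson correlation of rescaled log2(FPKM + 1) among 7050 genes with a mean of at least 5 FPKM. For Atp2a2 these were Acsl1 (r = 0.962), Entpd5 (0.946), Nnt (0.887), Smyd1 (0.858) and Aldh6a1 (0.855). For Ryr2 they were Clasp1 (r = 0.887), Kcnj2 (0.878), Mmachc (0.872), 1700020I14Rik (0.861) and Abcc9 (0.852). The 16 points of each correlation share the 4 groups, the depth of each library and its length trend, and the values describe these libraries only.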

How the data were processed

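PolyA RNA of 16 ventricular libraries was measured by sequencing. Per the submitters' processing notes, FastQC 0.11.5, STAR 2.5.3a, Cuffdiff, Cufflinks 2.2.1 and R 3.3.1 were used with build mm9. The deposited values are FPKM per gene and library, and a second deposited table holds the authors' FPKM per group. FPKM hold no counts, so depth was estimated from the lowest products of FPKM and effective length, which mark single fragments, over 6863 genes with 1 transcript and with a fragment length of 200 nt assumed.

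Values were analysed as log2(FPKM + 1) for genes that reached 1 FPKM in 4 or more libraries, with limma 3.58.1 (R 4.3.3, trended prior), 1 fit of 4 group means, 5 comparisons and Benjamini-Hochberg adjustment over 12100 genes. The fit was repeated after dividing each library by a median-ratio factor. A fold change on this scale understates that of low genes. Same-numbered RV and LV libraries were treated as unpaired.

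Transcript lengths and GC content came from GENCODE vM21, which covered 99.3% of tested genes. Alternatives were other scalings, pseudocounts and filters, a length and GC correction, fits to fewer libraries and a block by library number. Partner genes were named where they passed on both scales, at most 4 per list and comparison, with 8 more named whatever they did (Sln, Casq1, Srl, Fkbp1b, Camk2d, S100a1, Atp2b1 and Cacnb2). The 10 genes and all lists were chosen with earlier results of these data known.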

Additional observations from a re-analysis of the deposited data

Results flagged for a closer look

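In groups of 4, the library at one end was compared with its nearest neighbour over the range of the group, and 2 of 52 groups (the 10 genes and 3 ratios in 4 groups) had a library past Dixon's 95% critical value. Chance alone gives about 1 such group in 20. Atp2a2 stood at 1766 FPKM in LV banded library PS_9552, 0.908 of the range from the next banded LV library. Ryr2 stood at 147.2 FPKM in RV banded library PS_9564, 0.87 of the range from the next banded RV library.

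The banding effect differed between the ventricles (RV minus LV, log2, limma adjusted p over all tested genes) for 5 of 78 tested genes, the 10 and their partner lists, on both scales, where 3.98% of all tested genes did so. Hrc had a difference of -1.52 (adjusted p = 0.00696), as described above. Calr had -1.24 (limma adjusted p = 0.0332), with 72.4 ± 13.9 FPKM in the banded RV and 67.6 ± 17.0 FPKM in the sham RV (SD, n = 4 each), and its LV values stand above. Cav3 had -1.59 (limma adjusted p = 0.00128), with 69.2 ± 15.6 FPKM in the banded LV and 47.0 ± 5.25 FPKM in the sham LV beside its fall in the RV. Ppp1ca, a catalytic subunit of the phosphatase that acts on phospholamban, had -1.16 (limma adjusted p = 0.00221), and was named after its values were seen. It averaged 123 ± 14 FPKM in the banded RV and 151 ± 11.9 FPKM in the sham RV, and 204 ± 11 FPKM in the banded LV and 113 ± 20.7 FPKM in the sham LV. Prkar1a had 0.987 (limma adjusted p = 0.0408), with 227 ± 54.0 FPKM in the banded LV and 156 ± 8.78 FPKM in the sham LV beside its rise in the RV.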

How the results depend on the processing

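Counts of the 10 genes passing as deposited were, in the RV banding comparison (2, both higher), 6 with TPM scaling, 1 with no filter, 0 in the comparison's own libraries, 0 among libraries with an Rn45s value and 0 to 4 with a library left out. With the length and GC correction by median transcript the count was also 1, but the gene was Atp2a2, which was lower, and not Slc8a1 or Asph. With the correction by longest transcript the count was 2, both lower. In the LV banding comparison (5) the counts were 0 rescaled, with TPM scaling, with quantile normalization, with either length and GC correction and among libraries with an Rn45s value, 2 with no filter and 1 to 5 with a library left out. Between ventricles of sham mice (0) they were 3 rescaled, 8 with TPM scaling, 4 with quantile normalization, 1 among libraries with an Rn45s value and 0 to 2 with a library left out. Between ventricles of banded mice (3) they were 0 with TPM scaling, with quantile normalization and among libraries with an Rn45s value, 1 with no filter, in the comparison's own libraries or with the replicate block, and 1 to 4 with a library left out. For the difference of effects (1) they were 0 with quantile normalization and among libraries with an Rn45s value, and 1 to 2 with a library left out. With TPM scaling the count was also 1, but the gene was Slc8a1, with the opposite sign (1.25, limma adjusted p = 0.0464), and not Hrc. Over both scales the counts with a library left out were 0 to 3, 0 to 2, 0 to 2, 0 to 2 and 1 to 1 in the same order. Among libraries with an Rn45s value, over both scales, they were 0, except for 1 (Slc8a1) between sham ventricles.

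The log2 differences below turned in direction, and none of them had passed as deposited. Some passed under another setting in the RV, namely Hrc rescaled (-0.65, limma adjusted p = 0.0222), Atp2a2 with the length and GC correction (-0.65, limma adjusted p = 0.0382), and Ryr2 (0.79, limma adjusted p = 0.00802) and Cacna1c (0.61, limma adjusted p = 0.00906) with TPM scaling. In the RV, with TPM scaling Atp2a2 was 0.255, Hrc 0.0418 and Jph2 0.184, and with quantile normalization Atp2a2 was 0.031. Pln was -0.157 rescaled, -0.385 and -0.453 with the corrections by median and longest transcript, -0.281 among libraries with an Rn45s value, and -0.101 to 0.148 with a library left out. Cacna1c was -0.0696, -0.14, -0.22, -0.205 and -0.0577 to 0.26 under the same settings, and Ryr2 was -0.126 and -0.271 with the 2 corrections. In the LV, Ryr2 was -0.322 rescaled, -0.115 with TPM scaling, -0.526 with quantile normalization, -0.223 and -0.101 with the corrections and -0.277 among libraries with an Rn45s value. Cacna1c was -0.35, -0.147, -0.455, -0.107, -0.0589 and -0.0448 under these, and -0.0256 to 0.103 with a library left out. Slc8a1 was -0.0419 rescaled, -0.101 with quantile normalization, -0.0712 with the median correction and -0.0743 among libraries with an Rn45s value, Jph2 was -0.181 with quantile normalization, and Atp2a2 was -0.147 to 0.0984 with a library left out. The causes were not tested. Over all tested genes, banding comparisons gave 1512 higher and 596 lower genes in the RV as deposited and 1308 and 1101 rescaled, and 1725 and 39 in the LV as deposited and 295 and 190 rescaled, while TPM scaling gave 5679 and 142 in the RV and 64 and 13 in the LV. Between sham ventricles the counts were 357 higher and 161 lower as deposited, 426 and 617 rescaled and 38 and 2970 with TPM scaling. Between banded ventricles they were 23 and 350 as deposited and 82 and 174 rescaled, and for the difference of effects 64 and 669, and 261 and 426.

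Deviations of same-numbered RV and LV libraries from their group means correlated across genes at -0.0911 to 0.151, over 0.1 in 1 of 8 pairs. Library-wide differences in scale and depth enter these values, so they cannot show whether same-numbered libraries came from one animal. The labels do not say so either. With the replicate block, over both scales, the count between banded ventricles was 0 (Hrc and Pln lost) and that for the difference of effects was 0 (Hrc lost), where Hrc was -1.52 as deposited (limma adjusted p = 0.0297). With the block, counts over all genes fell to 92 and 39 between sham ventricles, 9 and 199 between banded ventricles and 33 and 442 for the difference of effects. The correction by longest transcript and the counts over both scales were chosen after seeing the data. Depth limits Slc8a1 and Trdn most, since the lowest library rests on an estimated 16.2 and 1.44 fragments in that order.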

Other observations

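Several partner genes also differed between the ventricles of sham mice on both scales. In the sham RV 2 of 16 tested SERCA pump partners and 2 of 17 release unit partners were lower. Of the channel and T-tubule genes 2 of 14 were higher, and of the IP3 receptor and store-operated entry genes 1 of 10. None of 11 mitochondrial genes passed. Over all tested genes 1.33% were lower and 2.55% higher. The sham RV had less Akap6 than the sham LV (log2 difference -0.94, limma adjusted p = 0.0259), less Camk2d (-1.18, limma adjusted p = 0.0222), less Prkar1a (-0.79, limma adjusted p = 0.0323) and less Prkar2a (-0.89, limma adjusted p = 0.0447). It had more Cav3 (1.09, limma adjusted p = 0.00992), more Itpr2 (1.04, limma adjusted p = 0.0316) and more of the exchanger Slc8a2 (0.86, limma adjusted p = 0.047), which was named after its values were seen. Slc8a2 was low, at 2.02 ± 1.02 FPKM in the sham RV and 0.595 ± 0.168 FPKM in the sham LV (SD, n = 4 each). The same 4 sham RV libraries enter the banding comparison of the RV.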
